A study of Mus musculus with 12 samples.

Results

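Endothelial, pericyte and fibroblast genes were followed in cultures of cerebellar granule neurons (CGNs), where they mark cells other than the neurons. The 10 genes were Cldn5, Pecam1 and Kdr for endothelium, Pdgfrb, Abcc9 and Anpep for pericytes, and Col1a1, Col1a2, Dcn and Fmod for meningeal and perivascular fibroblasts. They were chosen by name as markers of these cells, and each was read from 1 probe set, the one with the highest mean over all 12 arrays among those annotated to a single gene. All 10 were measured, out of 18193 genes in all.

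CGNs were prepared from the cerebella of 7-day-old B10.RIII pups that carried Ifnb (Ifnb+/+) or lacked it (Ifnb-/-), and all 12 cultures were lysed after 3 days. For each genotype, 3 cultures stayed untreated and 3 received recombinant IFN-β (rIFN-β) at 100 U/ml for the last 24 hours. RNA of each culture was hybridized to 1 Affymetrix mouse genome expression array, and values are log2 intensities after robust multi-array averaging (RMA), so a difference of 1 is a doubling of signal. The labels give the wild type as Ifnb+/+, but the study's methods also count Ifnb+/- pups among its wild-type mice, so heterozygous animals in the Ifnb+/+ cultures cannot be told from the sources used here. Ifnb-/- pups lacked the gene in every cell, and whether the cultures of a group stem from different litters is not stated, so the p-values measure only culture-to-culture spread, which may be technical.

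Array medians lay between 4.33 and 4.42. Arrays of 1 group correlated at 0.971 to 0.993 in untreated Ifnb+/+ cultures, where replicates 1 and 2 stood furthest from the others, at 0.997 to 0.998 in untreated Ifnb-/- cultures, at 0.983 to 0.989 in treated Ifnb+/+ cultures and at 0.985 to 0.997 in treated Ifnb-/- cultures. The probe set of Ifnb1, the deleted gene, read 2.60, 2.77 and 2.79 in untreated Ifnb+/+ cultures and 2.87, 2.75 and 2.48 in untreated Ifnb-/- cultures, so these groups overlapped at the low end of the scale and the probe set gave no check of the genotype labels. All 8 measured interferon-stimulated genes were higher after rIFN-β in Ifnb+/+ cultures and 7 of 8 in Ifnb-/- cultures (limma adjusted p under 0.05), with a median log2 fold change of 6.22 and 6.20. The 12 granule neuron markers averaged 9.14 to 9.56 over the 12 arrays.

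Brain capillaries are built from endothelial cells joined by tight junctions, pericytes that wrap them within a shared basement membrane, and, around larger vessels and in the meninges, fibroblasts that lay down collagen. Endothelial VEGF receptors sense VEGF-A, pericytes are held to the vessel by PDGF signaling through PDGFRB, and fibroblast collagen fibrils are spaced by small leucine-rich proteoglycans such as decorin and fibromodulin.

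Among the endothelial genes, Cldn5, which encodes the main tight junction claudin of brain capillaries, read 3.90, 3.22 and 3.70 in untreated Ifnb+/+ cultures, 3.40, 3.23 and 3.24 in untreated Ifnb-/- cultures, 3.22, 3.04 and 3.29 in treated Ifnb+/+ cultures, and 3.34, 3.38 and 3.55 in treated Ifnb-/- cultures. Its values were highest on arrays 1 and 3 of untreated Ifnb+/+ cultures, and the untreated genotypes overlapped. The 250 bases before the start of Cldn5, from RefSeq, build GRCm38.p6, chr16:18776597-18776846 on the plus strand, are shown because they carry 2 CCAAT boxes, with CCAAT boxes and GC boxes in capitals on whichever strand they lie.
Cldn5: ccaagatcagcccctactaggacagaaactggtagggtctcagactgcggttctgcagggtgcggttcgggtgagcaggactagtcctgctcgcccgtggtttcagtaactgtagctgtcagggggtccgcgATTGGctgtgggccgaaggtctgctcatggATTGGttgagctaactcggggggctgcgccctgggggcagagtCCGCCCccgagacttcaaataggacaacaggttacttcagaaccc

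Pecam1, an adhesion molecule at endothelial junctions, read 3.27, 2.75 and 2.75 in untreated Ifnb+/+ cultures, 2.40, 2.52 and 2.36 in untreated Ifnb-/- cultures, 2.70, 2.83 and 2.67 in treated Ifnb+/+ cultures, and 2.83, 2.82 and 3.11 in treated Ifnb-/- cultures. Each untreated Ifnb-/- array lay below every array of the other groups. Kdr, the main signaling receptor for VEGF-A, read 4.76, 4.80 and 4.79 in untreated Ifnb+/+ cultures, 4.55, 4.55 and 4.62 in untreated Ifnb-/- cultures, 4.80, 4.69 and 5.04 in treated Ifnb+/+ cultures, and 4.82, 4.39 and 4.65 in treated Ifnb-/- cultures. Kdr was lower on all untreated Ifnb-/- arrays than on all untreated Ifnb+/+ arrays, and the treated genotypes overlapped. The mean of Cldn5 lay at the 29.0th percentile of gene means over the 12 arrays and that of Pecam1 at the 18.8th, so both defining endothelial markers sat in the low part of the range, although a level also depends on the probes and no detection calls were used here.

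Pericyte genes followed no single course. Pdgfrb, the receptor that draws pericytes to vessels, read 5.79, 5.64 and 5.74 in untreated Ifnb+/+ cultures, 5.92, 5.88 and 5.64 in untreated Ifnb-/- cultures, 5.86, 6.11 and 6.69 in treated Ifnb+/+ cultures, and 6.14, 6.13 and 6.21 in treated Ifnb-/- cultures. In both genotypes all 3 treated arrays lay above all 3 untreated arrays. Abcc9, which encodes the regulatory subunit of the vascular ATP-sensitive potassium channel, read 3.98, 3.45 and 3.55 in untreated Ifnb+/+ cultures, 3.40, 3.39 and 3.28 in untreated Ifnb-/- cultures, 3.64, 3.77 and 3.64 in treated Ifnb+/+ cultures, and 3.73, 3.67 and 3.55 in treated Ifnb-/- cultures. As with Pecam1, the untreated Ifnb-/- arrays were the lowest of the 12.

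Anpep, the ectopeptidase CD13, is used as a pericyte marker and is also made by myeloid cells. It read 5.38, 5.36 and 5.50 in untreated Ifnb+/+ cultures, 4.24, 4.74 and 4.84 in untreated Ifnb-/- cultures, 4.79, 4.11 and 4.07 in treated Ifnb+/+ cultures, and 5.10, 4.64 and 5.45 in treated Ifnb-/- cultures. The untreated Ifnb+/+ arrays stood above both the untreated Ifnb-/- and the treated Ifnb+/+ arrays, and the treated genotypes overlapped. Its upstream 250 bases (RefSeq, GRCm38.p6, chr7:79848211-79848460, minus strand) are shown because Anpep is the member that passed a test, with 3 GC boxes in capitals.
Anpep: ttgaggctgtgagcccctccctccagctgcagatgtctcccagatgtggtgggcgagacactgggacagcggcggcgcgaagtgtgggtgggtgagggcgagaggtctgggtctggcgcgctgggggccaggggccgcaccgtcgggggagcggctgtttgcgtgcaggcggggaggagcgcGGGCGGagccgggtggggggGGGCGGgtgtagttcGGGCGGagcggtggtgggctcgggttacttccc

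The fibroblast genes included the brightest of the set. Col1a1, the first chain of type I collagen, read 7.57, 7.01 and 7.28 in untreated Ifnb+/+ cultures, 6.59, 6.94 and 6.74 in untreated Ifnb-/- cultures, 6.86, 7.19 and 6.44 in treated Ifnb+/+ cultures, and 6.91, 6.70 and 7.15 in treated Ifnb-/- cultures. Col1a2, the partner chain, read 8.95, 8.64 and 8.93 in untreated Ifnb+/+ cultures, 8.49, 8.67 and 8.55 in untreated Ifnb-/- cultures, 8.67, 8.82 and 8.48 in treated Ifnb+/+ cultures, and 8.54, 8.26 and 8.67 in treated Ifnb-/- cultures. Col1a1 separated the untreated genotypes without overlap and Col1a2 did not. The chains ran together over the 12 arrays, which share platform and normalization, with a Pearson r of 0.86, and of 0.92 for deviations from the group means. The window upstream of Col1a2 (RefSeq, GRCm38.p6, chr6:4505368-4505617, plus strand) is shown for its 1 CCAAT box and 2 GC boxes, in capitals.
Col1a2: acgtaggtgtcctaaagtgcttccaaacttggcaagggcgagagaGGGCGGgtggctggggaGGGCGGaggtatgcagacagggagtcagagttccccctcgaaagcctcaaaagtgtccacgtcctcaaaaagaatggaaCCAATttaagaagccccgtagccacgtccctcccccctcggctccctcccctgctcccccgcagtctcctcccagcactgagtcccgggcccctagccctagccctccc

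Dcn (decorin) read 7.06, 8.87 and 8.23 in untreated Ifnb+/+ cultures, 8.80, 8.71 and 8.61 in untreated Ifnb-/- cultures, 8.27, 8.05 and 8.12 in treated Ifnb+/+ cultures, and 7.63, 7.73 and 7.62 in treated Ifnb-/- cultures. The untreated Ifnb+/+ cultures spread over more than the distance between any pair of the other groups (SD 0.92, n = 3), whereas the other groups had SDs of 0.06 to 0.11. Fmod (fibromodulin) read 6.67, 5.91 and 6.25 in untreated Ifnb+/+ cultures, 5.68, 5.70 and 5.73 in untreated Ifnb-/- cultures, 5.93, 5.97 and 6.29 in treated Ifnb+/+ cultures, and 5.17, 5.42 and 5.70 in treated Ifnb-/- cultures. Fmod was lower in Ifnb-/- than in Ifnb+/+ cultures without overlap, both untreated and treated. Within untreated Ifnb+/+ cultures, replicate 1 held the highest values of Cldn5, Pecam1, Pdgfrb, Abcc9, Col1a1, Col1a2 and Fmod and the lowest of Kdr and Dcn, and replicate 2 held the highest of Kdr and Dcn.

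**Figure D1:**
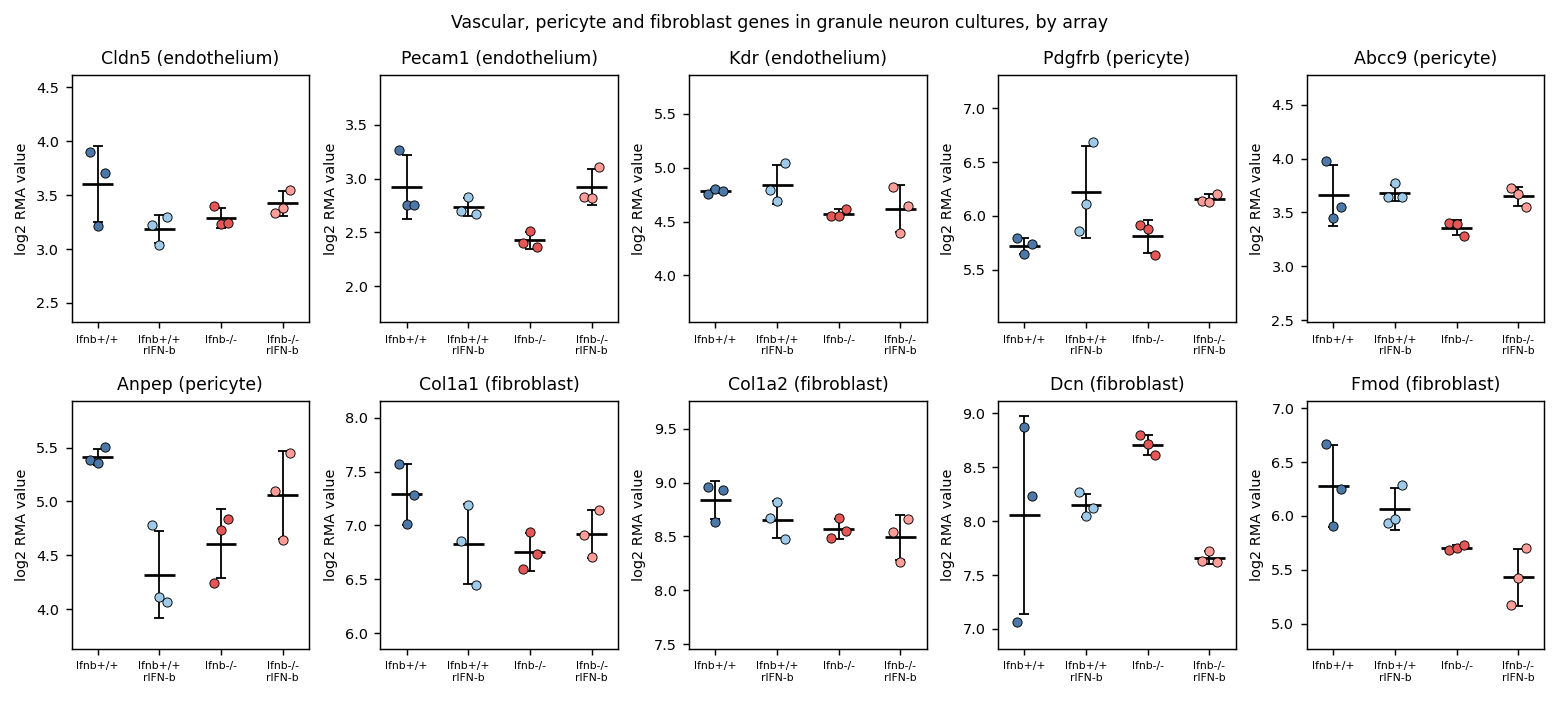
Log2 RMA values of the 10 genes, 1 panel each, in untreated and rIFN-β-treated (rIFN-b) Ifnb+/+ and Ifnb-/- cultures, with 1 point per array in replicate order, the bar at the group mean and whiskers of 1 SD (n = 3); all panels span the same number of log2 units. Anpep was 5.36 to 5.50 in untreated Ifnb+/+ cultures and 4.07 to 4.79 after rIFN-β, and Dcn ranged from 7.06 to 8.87 in untreated Ifnb+/+ cultures.

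Whether the loss of Ifnb altered these genes was read from untreated Ifnb-/- against untreated Ifnb+/+ cultures. None of the 10 passed a limma adjusted p of 0.05, against 0.115% of all genes, and the smallest adjusted p was 0.175. At an unadjusted p under 0.05, 5 of 10 were lower and 0 higher, beside 12.8% of all genes lower and 8.4% higher. Pecam1, Kdr, Abcc9, Anpep, Col1a1 and Fmod had lower values on every Ifnb-/- array without overlap (6 of 10), beside 18.1% of all genes. In bulk RNA, fewer cells of a type and less RNA per cell cannot be told apart.

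Anpep averaged 5.41 ± 0.08 in Ifnb+/+ and 4.61 ± 0.32 in Ifnb-/- cultures (SD, n = 3), a log2 difference of -0.81 (SE 0.24, 95% interval -1.32 to -0.29, limma adjusted p = 0.175). For Fmod the difference was -0.57 (SE 0.19, adjusted p = 0.185), for Col1a1 -0.53 (SE 0.20, adjusted p = 0.200) and for Pecam1 -0.50 (SE 0.15, adjusted p = 0.175). Dcn pointed the other way, at 0.65 with an interval of -0.05 to 1.35. The median over the 10 genes was -0.31, and that over all genes was -0.09. Without Ifnb+/+ replicate 2, 6 of 10 passed the adjusted test, with Cldn5, Pecam1, Anpep, Col1a1 and Fmod lower and Dcn higher. The share of all genes called by that fit is not given here, so this count cannot be read as particular to these genes. With arrays weighted by their quality 9 of 10 passed, 8 lower and 1 higher, when 7946 of all genes did.

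Every one of the 6 Fmod probe sets was lower in Ifnb-/- cultures, by -0.32 to -0.79, and 5 of them, the one used here included, are of a type whose probes can match other transcripts. The other Col1a1 probe set gave -0.33, and the bright alternative Col1a2 probe set -0.35. The Pdgfrb probe sets disagreed, at 0.09 for the one with the higher mean and -0.36 for the other. Those of Abcc9 did so too, at -0.30 for the one used here and 0.00 and 0.11 for 2 dimmer ones with means of 1.94 and 2.61. The other Dcn probe set, at a mean of 2.44, gave -0.05 against 0.65, and the dim Col1a2 probe set, at a mean of 1.99, gave -0.02.

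In Ifnb+/+ cultures, rIFN-β lowered Anpep, the sole member to pass (1 of 10, against 3.14% of all genes and 1.36% that fell). Anpep dropped from 5.41 ± 0.08 to 4.32 ± 0.40 (SD, n = 3), a log2 difference of -1.09 (SE 0.24, 95% interval -1.61 to -0.58, limma adjusted p = 0.0271), or 2.13-fold lower. The call was lost without Ifnb+/+ replicate 1 (adjusted p = 0.0568) or 3 (adjusted p = 0.116) and without treated replicate 2 (adjusted p = 0.118) or 3 (adjusted p = 0.118), at differences of -0.97 to -1.11. It was also lost when only these 6 arrays were fitted (adjusted p = 0.0843). The methods' own test after Benjamini-Hochberg adjustment did not call Anpep either (adjusted p = 0.462). In the same comparison that test also missed the interferon-stimulated genes Cxcl10 (7.72, adjusted p = 0.140), Ifit1 (7.00, adjusted p = 0.165) and Usp18 (6.81, adjusted p = 0.176). Its loss of the Anpep call is therefore not particular to Anpep.

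Most microglial markers moved with Anpep in Ifnb+/+ cultures. Of 13 markers, 8 passed as lower after rIFN-β (limma adjusted p under 0.05), beside 1.36% of all genes, and 0 passed as higher. Their median log2 difference was -0.83 (all genes -0.03). Fcgr1 went the other way, from 6.92, 6.59 and 6.65 to 7.00, 7.01 and 7.03 (difference 0.29, adjusted p = 0.319). The summed linear signal of the 13 was 3217 to 3418 in untreated and 1425 to 1958 in treated Ifnb+/+ cultures. In untreated Ifnb-/- cultures the sum was 2050 to 2289, and in treated Ifnb-/- cultures it was 1677 to 1950. Between the untreated genotypes Trem2 (-1.03, limma adjusted p = 0.0164) and Fcgr1 (-1.30, limma adjusted p = 0.0115) were the 2 markers called, both lower in Ifnb-/- cultures. Leaving out single arrays took the adjusted p up to 0.135 for Trem2 and 0.0949 for Fcgr1, averaging probe sets ended the Trem2 call (-0.56, adjusted p = 0.0843), and fitting only the compared groups ended the Fcgr1 call (adjusted p = 0.0749). After rIFN-β in Ifnb-/- cultures, where the Anpep mean was 4.61 untreated and 5.06 treated, the markers went both ways. Their median difference was -0.36 (all genes 0.07). At an unadjusted limma p under 0.05, 5 of 13 were lower, beside 5.44% of all genes, and 1 was higher, beside 9.16%. Laptm5 fell by 0.83 (limma adjusted p = 0.0252) and Fcgr1 rose by 1.04 (limma adjusted p = 0.00606). Among markers that did not pass, Aif1 (-1.03), Csf1r (-0.57) and Cd68 (-0.36) were lower, and C1qa, C1qb, C1qc, Cx3cr1 and Trem2 had differences of 0.02 to 0.30. The Laptm5 call there was lost in 7 of the 12 fits that left out 1 array (highest adjusted p 0.141) and when probe sets were averaged (-0.26, adjusted p = 0.320). The part of microglia in the Anpep result was not tested.

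Pdgfrb, at 5.72 ± 0.07 and 6.22 ± 0.42 (SD, n = 3) in untreated and treated Ifnb+/+ cultures, differed by 0.50 (SE 0.18, 95% interval 0.12 to 0.88, limma adjusted p = 0.150). It was the 1 member that was higher without overlap, beside 6.67% of all genes, as Anpep was the 1 that was lower, beside 9.28%. Cldn5 differed by -0.42 (SE 0.16, adjusted p = 0.175) and Col1a1 by -0.46 (SE 0.20, adjusted p = 0.232). Cldn5 passed when untreated Ifnb+/+ replicate 2 was left out, and Pdgfrb when treated Ifnb+/+ replicate 1 was. For Kdr the interval was -0.22 to 0.34, for Abcc9 -0.27 to 0.32 and for Dcn -0.61 to 0.79, each spanning both directions.

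**Figure D2:**
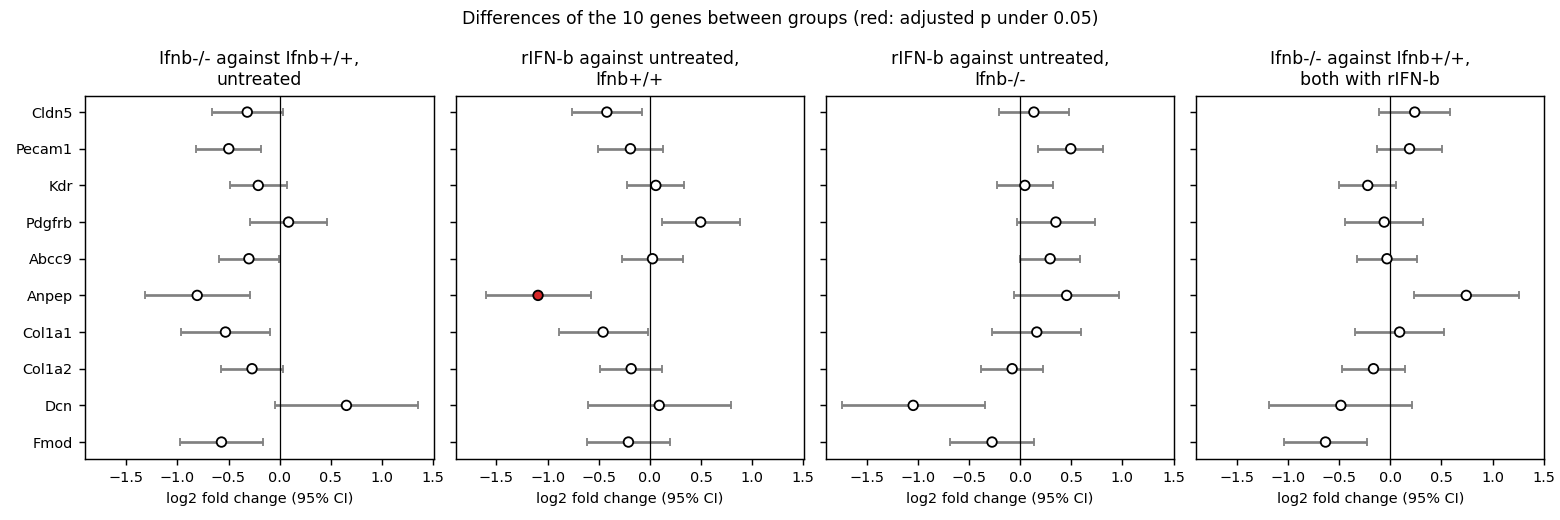
Log2 differences of the 10 genes with 95% intervals in the 4 comparisons of 2 groups, from the fit of all 12 arrays; a red point marks a limma adjusted p under 0.05. Anpep after rIFN-β in Ifnb+/+ cultures (-1.09) is the 1 red point, and Dcn after rIFN-β in Ifnb-/- cultures (-1.05) has an interval of -1.74 to -0.35.

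In Ifnb-/- cultures 0 of 10 genes passed after rIFN-β, against 1.67% of all genes, and Pecam1 and Dcn had an unadjusted p below 0.05, 1 gene up beside 9.16% of all genes and 1 down beside 5.44%. Dcn averaged 8.71 ± 0.09 untreated and 7.66 ± 0.06 treated (SD, n = 3), a log2 difference of -1.05 (SE 0.32, limma adjusted p = 0.151), or 2.06-fold lower, and its arrays did not overlap. Since the SE comes from all 4 groups, it includes the wide spread of untreated Ifnb+/+ cultures. Fitted on the 6 Ifnb-/- arrays alone, Dcn and Pecam1 passed, and the methods' t-test with Benjamini-Hochberg adjustment called Dcn. Leaving out Ifnb+/+ replicate 1 made Dcn and Pecam1 pass, and leaving out Ifnb+/+ replicate 2 made Dcn pass. Shares of all genes called by these alternative fits are not given here.

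Pecam1 averaged 2.43 ± 0.08 untreated and 2.92 ± 0.17 treated (SD, n = 3), a difference of 0.49 (SE 0.15, limma adjusted p = 0.134). Pecam1, Pdgfrb and Abcc9 were the 3 members higher without overlap, beside 20.3% of all genes, and Dcn was the 1 lower, beside 12.6%. Anpep differed by 0.45 (SE 0.24, adjusted p = 0.398). The 3 pericyte genes all had positive differences (0.29 to 0.45) and the fibroblast genes, apart from Col1a1 at 0.16, had negative ones, with a median of 0.15 over the 10 and 0.07 over all genes. This comparison shares its untreated arrays with the genotype comparison above, so the differences of a gene in both are not independent.

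With rIFN-β in both genotypes, 0 of 10 passed in limma against 0.0605% of all genes, and at an unadjusted p below 0.05 Anpep was higher (1 of 10, beside 1.88% of all genes) and Fmod lower (1 of 10, beside 3.06%). Fmod averaged 5.43 ± 0.26 in Ifnb-/- and 6.06 ± 0.19 in Ifnb+/+ cultures (SD, n = 3), a difference of -0.63 (SE 0.19, limma adjusted p = 0.483). All its other probe sets gave smaller differences here, from -0.35 to -0.07. Fmod and Dcn were lower without overlap (2 of 10, beside 3.47% of all genes) and Cldn5 higher (1 of 10, beside 4.64%). Anpep differed by 0.74 (SE 0.24, adjusted p = 0.564) with overlapping arrays.

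The difference between the rIFN-β effects of the genotypes was tested as an interaction, and 0 of 10 passed against 0.022% of all genes. At an unadjusted p under 0.05, Cldn5, Pecam1, Anpep and Col1a1 had a higher rIFN-β effect in Ifnb-/- cultures and Dcn a lower one (4 and 1 of 10, beside 10.1% and 5.21% of all genes). Anpep had an interaction of 1.55 (SE 0.33, limma unadjusted p = 0.000557, adjusted p = 0.323) and ranked 27 of 18193 by p. For Dcn it was -1.14 (SE 0.45, adjusted p = 0.323). Left out 1 at a time, Ifnb+/+ replicate 2 gave 3 calls (Cldn5 and Anpep positive, Dcn negative) and treated Ifnb+/+ replicate 1 gave 1 call (Anpep). Calls over all genes in these fits are not given here, so the counts cannot be read as particular to the members.

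Averaged by cell type on the log2 scale, the endothelial genes stood at 3.77 ± 0.19 in untreated Ifnb+/+, 3.43 ± 0.02 in untreated Ifnb-/-, 3.59 ± 0.08 in treated Ifnb+/+ and 3.65 ± 0.12 in treated Ifnb-/- cultures (SD, n = 3). The pericyte genes stood at 4.93 ± 0.12, 4.59 ± 0.07, 4.74 ± 0.07 and 4.96 ± 0.13 in the same order. The fibroblast genes stood at 7.61 ± 0.06, 7.43 ± 0.06, 7.42 ± 0.09 and 7.13 ± 0.14. Among these members, untreated Ifnb+/+ was thus the highest group for endothelial and fibroblast genes. The untreated Ifnb-/- mean was the lowest for endothelial and pericyte genes, and the treated Ifnb-/- mean for fibroblast genes. Wider lists of 27 endothelial and 18 pericyte genes were also lowest in untreated Ifnb-/- cultures (3.63 and 3.92). A wider list of 28 fibroblast genes did not share the fibroblast order, at 5.52, 5.43, 5.52 and 5.46 in the same order of groups.

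**Figure D3:**
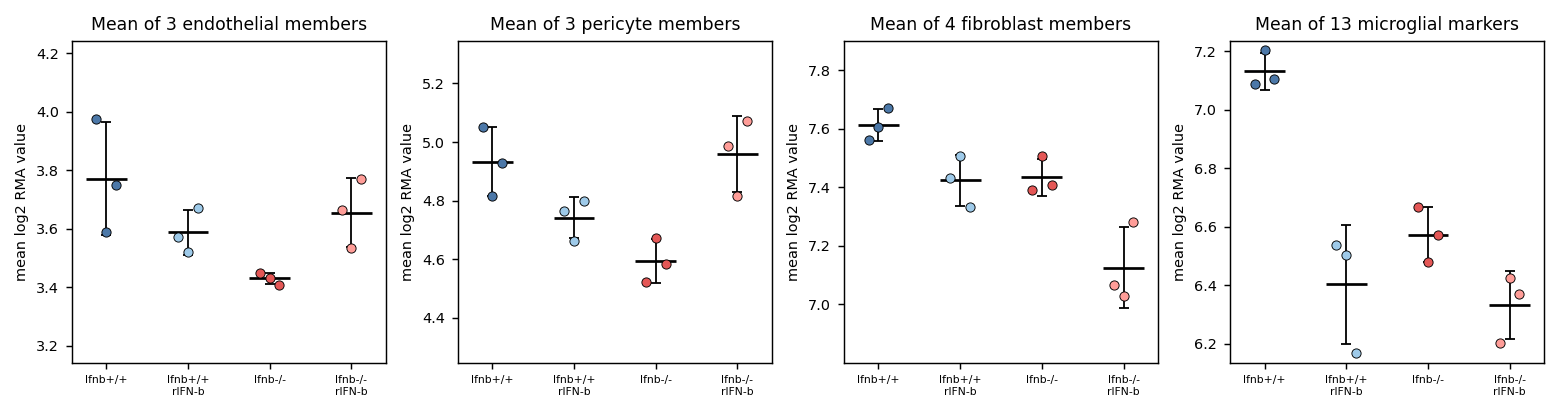
Mean log2 RMA value of the endothelial, pericyte and fibroblast genes and of 13 microglial markers in each array, with the group mean and whiskers of 1 SD (n = 3). The fibroblast mean was 7.03 to 7.28 in treated Ifnb-/- cultures and 7.56 to 7.67 in untreated Ifnb+/+ cultures, and the microglial mean was 7.09 to 7.20 in untreated Ifnb+/+ cultures and at most 6.67 elsewhere.

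The wider marker lists gave little more. Of 27 endothelial genes, 5 of them with a mean of at least 5, none passed between the untreated genotypes, with a median of -0.21 against -0.09 over all genes, and the sole call was Slc2a1, which encodes the glucose transporter GLUT1 and is also made by other cells. It read 7.41, 7.04 and 7.19 in untreated and 6.34, 6.05 and 6.49 in treated Ifnb+/+ cultures, and so fell by 0.92 without overlap (SE 0.18, limma adjusted p = 0.0152). That call was lost without Ifnb+/+ replicate 3 (adjusted p = 0.0644) and without treated replicate 2 (adjusted p = 0.0768), and with only the compared groups fitted (adjusted p = 0.0749). Of 18 pericyte and smooth muscle genes and 28 meningeal and perivascular fibroblast genes, 0 passed in any comparison by limma. At an unadjusted p under 0.05 at most 4 of the 18 differed. This was between the untreated genotypes (all lower, beside 12.8% of all genes) and in the interaction (all higher, beside 10.1%). Among the 28 the most was 6, after rIFN-β in Ifnb-/- cultures, 3 higher and 3 lower, beside 9.16% and 5.44%. Mgp, among the higher ones, read 5.97, 5.99 and 6.04 untreated and 7.14, 6.73 and 7.34 treated (difference 1.07, SE 0.29, adjusted p = 0.0949). Acta2, the contractile actin of smooth muscle, read 7.31, 5.96 and 6.68 in untreated Ifnb+/+ and 5.58, 5.49 and 5.31 in untreated Ifnb-/- cultures (difference -1.19, SE 0.28, adjusted p = 0.135).

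Around collagen, 1 of 17 processing and turnover genes and 1 of 11 small leucine-rich proteoglycans passed, both after rIFN-β in Ifnb-/- cultures, beside 1.67% of all genes. Between the untreated genotypes 7 of the 17 were lower and 0 higher at an unadjusted limma p under 0.05, beside 12.8% and 8.4% of all genes. Loxl1, a lysyl oxidase that cross-links elastin and collagen, read 3.99, 4.30 and 4.37 untreated and 5.96, 5.79 and 5.97 treated in Ifnb-/- cultures, and so rose by 1.69 (SE 0.30, limma adjusted p = 0.0164). It did not rise in Ifnb+/+ cultures, at 6.12, 4.48 and 5.36 untreated and 5.08, 5.03 and 5.22 treated (difference -0.21, SE 0.30, adjusted p = 0.738). Prelp, a proteoglycan that binds basement membrane to connective tissue, read 5.56, 5.63 and 5.79 untreated and 4.92, 4.54 and 5.14 treated in Ifnb-/- cultures (difference -0.80, SE 0.17, adjusted p = 0.0397). In Ifnb+/+ cultures the Prelp difference was -0.66 (SE 0.17, adjusted p = 0.0610). Ogn, a further proteoglycan of this family, shared with Dcn its low first array: it read 4.53, 7.08 and 6.31 in untreated Ifnb+/+ cultures, and in Ifnb-/- cultures 6.81, 6.64 and 6.70 untreated and 5.73, 4.56 and 5.26 treated (difference -1.53, SE 0.54, adjusted p = 0.219). In that Ifnb-/- comparison 2 of the 11 proteoglycans, Prelp and Ogn, were lower at an unadjusted limma p under 0.05, beside 5.44% of all genes. Podn (0.27) was the 1 higher, beside 9.16%. Lum (0.05) and Bgn (0.14) did not fall either. The Loxl1 call was lost without any 1 of 5 of the 6 Ifnb-/- arrays (highest adjusted p 0.0989) and the Prelp call without any 1 of 7 of the 12 arrays (highest adjusted p 0.186), and Prelp also when probe sets were averaged (-0.55, adjusted p = 0.0721). Of 12 basement membrane genes 0 passed. After rIFN-β in Ifnb-/- cultures 5 of the 12 were higher at an unadjusted limma p under 0.05, beside 9.16% of all genes, and 1 was lower, beside 5.44%. The 5 were Col4a1, Col4a2 and Col18a1, which encode basement membrane collagens, the perlecan gene Hspg2 and the laminin chain Lama5. Their differences were 0.36 to 0.87, and Lamb1 was the 1 lower, at -0.33. Treated replicate 2 stood far above the other treated arrays for the collagens. Col4a1 read 7.90, 9.29 and 7.95 treated, Col4a2 5.98, 7.24 and 6.22, and Col18a1 6.64, 7.84 and 6.73. Fits without that array are not given for these genes. Of the 3 other subunits of ATP-sensitive potassium channels (Kcnj8, Kcnj11 and Abcc8), 0 passed and 0 had an unadjusted p under 0.05.

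All 5 calls among vessel signaling genes were in ligands. Of 22 genes of VEGF, PDGF, angiopoietin and TGF-β signaling, 1 was called higher and 2 lower after rIFN-β in Ifnb+/+ cultures (limma adjusted p under 0.05). In Ifnb-/- cultures 1 was called higher and 1 lower. Of all genes, 3.14% and 1.67% were called in these comparisons. Pdgfb just missed in Ifnb+/+ cultures (-0.73, adjusted p = 0.0526). At an unadjusted p under 0.05 in Ifnb-/- cultures, 5 of the 22 were higher and 2 lower, beside 9.16% and 5.44% of all genes. Vegfa, the ligand of Kdr, rose by 0.77 in Ifnb+/+ cultures (SE 0.17, limma adjusted p = 0.0344), from 4.69, 5.19 and 5.22 to 5.71, 5.54 and 6.15. Tgfb1 fell by 0.95 (SE 0.16, adjusted p = 0.00547), from 6.38, 6.24 and 6.29 to 5.56, 5.37 and 5.13. Tgfb1, an inducer of collagen genes in fibroblasts, is also made by microglia. Of 13 microglial markers, 8 passed as lower in the same comparison, and the part of microglia was not tested.

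Pdgfc, a PDGF ligand, fell by 0.76 in Ifnb+/+ cultures (SE 0.18, limma adjusted p = 0.0381), from 7.53, 6.87 and 7.14 to 6.10, 6.50 and 6.65. In Ifnb-/- cultures Pdgfa, a ligand of the sister receptor of PDGFRB, rose by 0.84 (SE 0.13, adjusted p = 0.00816), from 5.34, 5.20 and 5.38 to 6.03, 6.30 and 6.10. Angpt2, an angiopoietin released by endothelium, fell by 0.67 there (SE 0.14, adjusted p = 0.0352), from 5.98, 5.87 and 6.12 to 5.30, 5.16 and 5.50. None of these 5 genes overlapped between the arrays of its comparison, which adds little, since they were picked for passing there. Of all genes, 6.67% were higher and 9.28% lower without overlap after rIFN-β in Ifnb+/+ cultures, and 20.3% and 12.6% in Ifnb-/- cultures. Leaving out 1 array at a time, the Tgfb1 call was kept in each fit, the Pdgfa call was lost once (without untreated Ifnb-/- replicate 2, adjusted p = 0.0592), and the highest adjusted p was 0.132 for Vegfa, 0.121 for Pdgfc and 0.180 for Angpt2. Averaging the probe sets of a gene ended the calls of Tgfb1 (-0.49, adjusted p = 0.0676), Vegfa (0.49, adjusted p = 0.0713) and Angpt2 (-0.32, adjusted p = 0.108). Fitting only the compared groups ended those of Vegfa (adjusted p = 0.236) and Pdgfc (adjusted p = 0.244). The methods' own test after Benjamini-Hochberg adjustment called none of the 5 (adjusted p = 0.0505 to 0.612). In Ifnb+/+ cultures it also missed Cxcl10, Ifit1 and Usp18, so there its losses are not particular to Vegfa, Tgfb1 and Pdgfc.

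**Figure D4:**
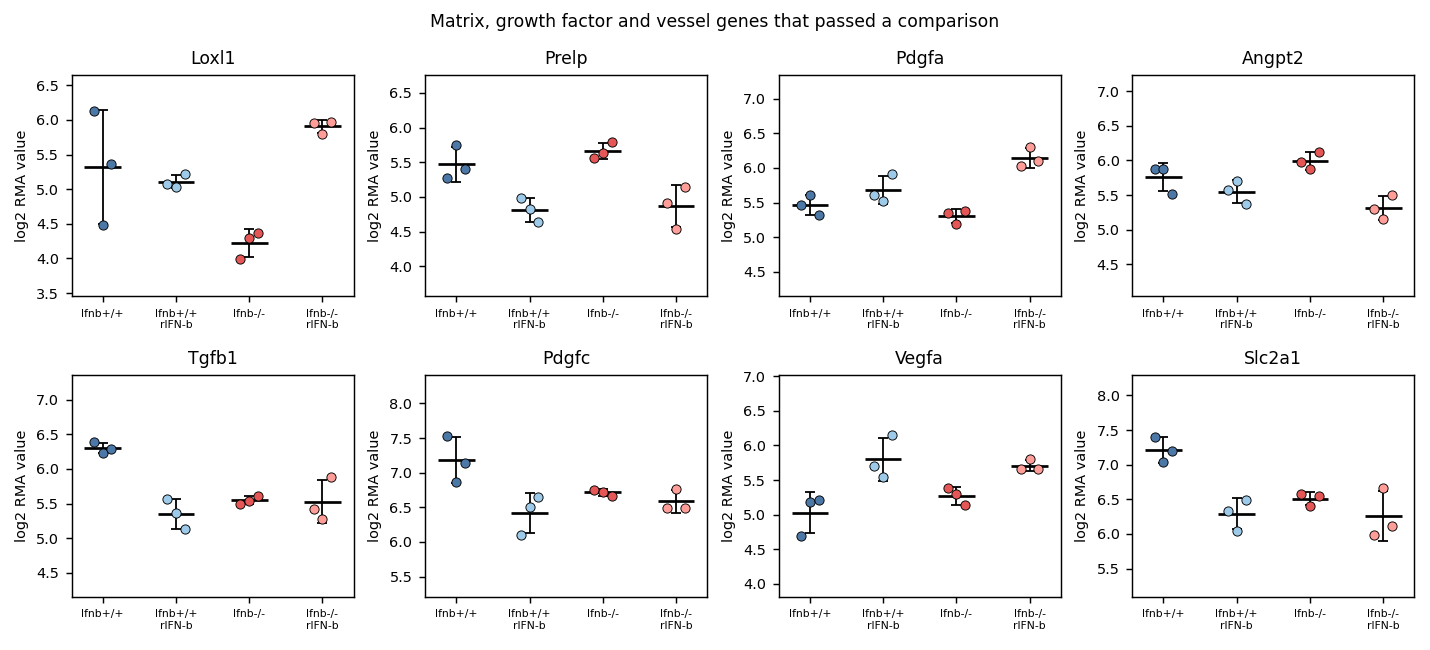
Log2 RMA values of 8 vessel, matrix and growth factor genes that passed 1 comparison each, with 1 point per array, the group mean and whiskers of 1 SD (n = 3). Loxl1 was 3.99 to 4.37 in untreated and 5.79 to 5.97 in treated Ifnb-/- cultures, and Tgfb1 was 6.24 to 6.38 in untreated Ifnb+/+ cultures and 5.13 to 5.88 in the other groups.

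Of the remaining lists, none of 9 astrocyte, 7 oligodendrocyte-lineage or 3 erythroid genes passed in any comparison by limma (at most 2, 1 and 1 had an unadjusted p under 0.05). Between the untreated genotypes these 2, 1 and 1 were all lower, beside 12.8% of all genes. Between the treated genotypes 2 astrocyte genes were lower, beside 3.06%. After rIFN-β in Ifnb-/- cultures 1 astrocyte gene was higher, beside 9.16%, and 1 lower, beside 5.44%. Among 12 granule neuron genes the 1 call was Gabra6, a GABA-A receptor subunit of mature granule cells, which read 4.94, 5.61 and 5.01 in treated Ifnb+/+ and 6.83, 6.29 and 6.75 in treated Ifnb-/- cultures (difference 1.44, SE 0.18, limma adjusted p = 0.0221). That call was lost with the replicate block (adjusted p = 0.0532), with only the compared groups (adjusted p = 0.379), by the methods' t-test after Benjamini-Hochberg adjustment (adjusted p = 0.977) and in 7 of the 12 fits that left out 1 array (highest adjusted p 0.156).

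Upstream windows were supplied for 6 of the 10 genes: Cldn5, Kdr, Abcc9, Anpep, Col1a2 and Fmod. The interferon-stimulated response element, searched on both strands as a pair of GAAA words 2 bases apart, was in 0 of 6 windows and in 2.98% of 32851 windows of all genes. The gamma-activated site, TTCNNNGAA, was in 0 of 6 and in 7.02% of all. A CCAAT box was in 2 of 6 (Cldn5, starting 118 and 88 bases before the gene's start, and Col1a2, 109 bases before) and in 33.8% of all, and a GC box, GGGCGG, was in 5 of 6 and in 32.7%. A match is a string of letters in this window and was not tested as a binding site.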

How the data were processed

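CGNs from 7-day-old pups were profiled in 4 groups of 3 cultures. Per the labels and the study's methods, the authors hybridized biotin-labeled RNA to Affymetrix mouse genome arrays and deposited quantile-normalized RMA values as log2 intensities in 1 table. Quantile normalization gives the arrays nearly one distribution, so a shift shared by most genes cannot be seen. No genome build or detection calls were given in the sources used here. Of 45037 probe sets, 34945 were annotated to 1 gene, 932 to several and 9160 to none, and only the first were used, as 18193 genes.

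Group means were fitted to all 12 arrays with limma 3.58.1 in R 4.3.3 (8 residual degrees of freedom, moderated variances), and p-values were Benjamini-Hochberg adjusted over all genes for each of 5 comparisons, which share arrays. The methods' t-test was run as an alternative, at an unadjusted p under 0.05 and 1.5-fold. The fit was tested on simulated data. The members and the 14 marker lists (182 of 195 genes measured) were chosen with earlier results of these data known. All 10 members were named. The naming rule for each list was up to 3 genes with the smallest adjusted p, and any genes called where 5 or fewer were. Not every gene it covered is named here, and some list genes named here lie outside it. Genes of like pattern were the 5 with the highest Pearson r over the arrays. Searches of upstream windows used RefSeq sequence of build GRCm38.p6. Array number limits precision.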

Additional observations from a re-analysis of the deposited data

How the results depend on the processing

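Of the 10 genes, the count that passed between the untreated genotypes went from 0 to 9 with array weights and 1 by the methods' t-test at an unadjusted p under 0.05 and 1.5-fold, and ranged from 0 to 6 with arrays left out 1 at a time. After rIFN-β in Ifnb+/+ cultures it went from 1 to 3 with array weights, and to 0 among genes with a mean of at least 5 (Anpep is not among them), with only the compared groups and by the t-test after Benjamini-Hochberg adjustment, with 0 to 2 over arrays left out. After rIFN-β in Ifnb-/- cultures it went from 0 to 5 with array weights, 2 with only the compared groups and 1 by the t-test under either rule, with 0 to 2 over arrays left out. Between treated genotypes it was 1 by the unadjusted t-test, and for the interaction 4 with array weights and 0 to 3 over arrays left out. Array weights called 7946, 3292, 3962, 210 and 4103 of all genes in these 5 comparisons, against 21, 571, 304, 11 and 4 with equal weights, and the cause was not tested. After rIFN-β in Ifnb+/+ cultures the methods' test after Benjamini-Hochberg adjustment also missed Cxcl10, Ifit1 and Usp18, so its 0 is not particular to the members. A left-out array leaves 2 in its group. Shares of all genes called are not given for the fits with arrays left out, so those member counts cannot be read as particular to these genes.

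Small differences changed sign. When the probe sets of each gene were averaged, Pdgfrb was -0.14 between the untreated genotypes, Abcc9 -0.018 after rIFN-β in Ifnb+/+ cultures, Col1a2 0.12 and Fmod 0.027 after rIFN-β in Ifnb-/- cultures, Abcc9 0.063 between the treated genotypes, and Pdgfrb 0.089 and Fmod 0.28 in the interaction. Centring each array on its median gave -0.013 for Abcc9 after rIFN-β in Ifnb+/+ cultures and -0.058 for Kdr in Ifnb-/- cultures, where a second quantile normalization gave -0.070. Array weights gave Dcn -0.10 after rIFN-β in Ifnb+/+ cultures and Kdr 0.12 in the interaction.

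With arrays left out, ranges that crossed 0 after rIFN-β in Ifnb+/+ cultures were -0.41 to 0.50 for Dcn, -0.080 to 0.19 for Abcc9 and -0.041 to 0.13 for Kdr. In Ifnb-/- cultures they were -0.055 to 0.16 for Kdr and -0.17 to 0.036 for Col1a2. Between treated genotypes they were -0.070 to 0.016 for Abcc9, -0.10 to 0.27 for Col1a1 and -0.24 to 0.17 for Pdgfrb, and for the interaction -0.11 to 0.10 for Kdr, -0.26 to 0.12 for Fmod and -0.33 to 0.088 for Pdgfrb.

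Deviations of same-numbered arrays correlated at -0.50 to 0.43, and both ends of that range lay between the treated genotypes. Between untreated and treated arrays, same-numbered pairs correlated at 0.065 to 0.30 in Ifnb+/+ and 0.051 to 0.073 in Ifnb-/- cultures. Differently numbered pairs correlated at -0.30 to 0.18 and -0.10 to 0.045 in the same order. Whether replicate numbers pair the samples was not tested. With the replicate block, the members called were 0, 1, 0, 0 and 0, as without it, and Prelp (adjusted p = 0.0653), Angpt2 (adjusted p = 0.0605) and Gabra6 between the treated genotypes (adjusted p = 0.0532) no longer passed in limma.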

Other observations

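The genes whose pattern over the 12 arrays was most like that of the endothelial mean were not on the endothelial list. Rps2 (a ribosomal protein), Kars (lysyl-tRNA synthetase), Krt1, Ogfod3 and Eef1d (a translation elongation factor subunit) correlated with it at 0.962 to 0.974, and at 0.908 to 0.956 for deviations from group means. The pericyte mean was matched by Nrsn2, Bves, Mtx1, Tmem74b and Gm13446 at 0.921 to 0.954. The fibroblast mean was matched by Gm14204, Slc11a1, Hcls1, Mettl7a2 and Alox5ap at 0.908 to 0.937, but at only 0.322 to 0.667 within groups. Slc11a1, Hcls1 and Alox5ap are known from macrophages and other leukocytes. These correlations are descriptions over arrays that share a platform and a normalization.

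Lists of this kind for single genes were added after the values were seen. Dcn ran with Vezf1, Pias1, Osbpl9, Cracd and Ap1s2 at 0.953 to 0.964, none of them on the fibroblast list, and against Pecam1 at -0.86 and Abcc9 at -0.85. Pdgfrb ran with Slc25a2, Btc, Slco3a1, Il18bp and Herc6 at 0.909 to 0.953, of which Herc6 and Il18bp are known interferon-induced genes. Anpep ran with 2310068J16Rik, Cox4i2, Magee1, Spag16 and Ckb at 0.887 to 0.918.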
